A study of Mus musculus with 2 samples.

Results

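The adrenergic receptor genes described here were chosen by their symbols and number 8: Adra1a, Adra1b and Adra1d for the alpha-1 group, Adra2a, Adra2b and Adra2c for the alpha-2 group, and Adrb1 and Adrb3 for the beta group. They are among the 55536 GENCODE genes measured, and they have 23 annotated transcripts. RNA came from the adrenal gland of female mice at 14 days of age. The mice were B6CASTF1/J, a first-generation hybrid of a laboratory strain and a wild-derived strain, with no treatment and no altered allele named in the labels. There is 1 group with 2 libraries, called replicate 1 and replicate 2, each made from 300 ng of total RNA after reduction of ribosomal RNA. With no second group, the libraries can be compared only with each other.

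Adrenergic receptors are membrane proteins that bind adrenaline and noradrenaline, the catecholamines that chromaffin cells of the adrenal medulla make and release. Alpha-1 receptors act mainly through G proteins of the Gq family and phospholipase C, which raises calcium in the cell and, in vessel walls, contracts smooth muscle. Alpha-2 receptors act through Gi proteins, lower cyclic AMP, and restrain further catecholamine release. Beta receptors act through Gs and adenylyl cyclase, which raises cyclic AMP. In the heart they speed the beat, and in fat cells they start the breakdown of stored fat and heat production.

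The libraries differed in more than depth. Expected counts summed to 37586172 in replicate 1 and to 33844950 in replicate 2, and ERCC spike-ins, synthetic RNAs added to each sample, took 0.337% of counts in replicate 1 and 0.322% in replicate 2. Of 16137 genes tested, 53.1% differed between the libraries beyond counting error. The 7 hepatocyte markers summed to 318 TPM in replicate 1 and 18456 TPM in replicate 2, and the 8 skeletal muscle markers to 23.8 TPM in replicate 1 and 542 TPM in replicate 2. TPM is a level per unit of transcript length, set relative to all entries of a library. Thymocyte markers ran the other way, with 32.6 TPM in replicate 1 and 0.88 TPM in replicate 2. The tissue's own markers were present in both libraries: the 6 adrenal cortex markers summed to 7234 TPM in replicate 1 and 3072 TPM in replicate 2, and the 7 chromaffin markers to 1582 TPM in replicate 1 and 726 TPM in replicate 2. The 5 brown adipocyte markers summed to 1839 TPM in replicate 1 and 2140 TPM in replicate 2. All 5 kidney tubule markers were under 1 TPM in both libraries, and Umod and Slc12a1 were at 0 counts. The labels give both libraries the same donor identifier and a pooled-female description, but replicate 2's tissue label speaks of 1 numbered female, so separate animals are not assured. P-values and intervals below therefore compare these 2 libraries and cover counting error only.

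Adra1b, Adrb3 and Adra1a make transcripts whose annotated start or coding end differs, and the transcript results below turn on these stretches. Adra1b has 2 annotated start regions far apart on chromosome 11, a distal and a proximal one, both read on the minus strand. The distal RefSeq window is chr11:43901188-43901487 and the proximal one chr11:43836440-43836739, in GRCm38.p6 (mm10), each with 250 bases before the start and 50 after it. Capitals mark the GC box GGGCGG on either strand, the only one of 4 searched motifs found in the pair.
Adra1b distal start: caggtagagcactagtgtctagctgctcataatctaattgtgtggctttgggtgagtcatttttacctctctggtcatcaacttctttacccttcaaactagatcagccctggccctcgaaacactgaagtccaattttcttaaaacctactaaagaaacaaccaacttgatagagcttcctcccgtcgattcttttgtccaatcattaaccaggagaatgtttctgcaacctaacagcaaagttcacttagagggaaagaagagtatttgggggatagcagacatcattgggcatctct
Adra1b proximal start: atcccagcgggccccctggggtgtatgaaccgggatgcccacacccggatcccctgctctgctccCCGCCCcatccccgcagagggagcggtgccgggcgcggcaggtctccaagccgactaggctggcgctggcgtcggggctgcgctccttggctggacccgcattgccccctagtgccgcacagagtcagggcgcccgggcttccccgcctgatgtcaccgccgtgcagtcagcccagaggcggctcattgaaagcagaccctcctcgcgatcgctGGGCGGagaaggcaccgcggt
The windows differed in composition. GC content was 42.3% at the distal start, at the 14.9th percentile of 32851 RefSeq promoters, and 71.3% at the proximal start, at the 92.2nd percentile. The GC box occurred 2 times at the proximal start and not at the distal one, and 35.7% of all promoters of this length hold it. The other motifs searched, on both strands, were TGACG (the core of the cyclic AMP response element), CANNTG (the E-box) and TATAAA (the TATA box), which 20.8%, 72.3% and 13.6% of all promoters hold. Windows were given for 5 of the 8 genes. TGACG was found once each in those of Adra2a and Adrb1, and TATAAA once in that of Adra2a. The GC box was not particular to Adra1b, with 1 in the window of Adra2a, 2 in that of Adra2b and 1 in that of Adrb1. The E-box occurred 1 time in the window of Adra2a and 4 times in that of Adra2c.

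Adrb3 and Adra1a each have coding forms that share most of their length and then end differently, by a splice at that point in at least 1 of each pair. For Adrb3, on the minus strand of chromosome 8, forms of 400 and 404 codons share 1163 coding bases. For Adra1a, on the plus strand of chromosome 14, forms of 466 and 427 codons share 1270. Each line gives the last 20 shared coding bases in lower case and the form's own coding bases in capitals, without the stop codon, from the GENCODE M21 transcripts on mm10. The Adrb3 stretches span chr8:27226757-27227276 and chr8:27226848-27227276, and the Adra1a stretches chr14:66727813-66727960 and chr14:66727813-66731575, spliced where an intron lies between.
Adrb3 of 400 codons: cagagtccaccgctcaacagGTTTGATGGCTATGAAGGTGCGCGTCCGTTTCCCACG
Adrb3 of 404 codons: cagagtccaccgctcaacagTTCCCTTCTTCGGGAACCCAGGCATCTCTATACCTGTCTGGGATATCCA
Adra1a of 466 codons: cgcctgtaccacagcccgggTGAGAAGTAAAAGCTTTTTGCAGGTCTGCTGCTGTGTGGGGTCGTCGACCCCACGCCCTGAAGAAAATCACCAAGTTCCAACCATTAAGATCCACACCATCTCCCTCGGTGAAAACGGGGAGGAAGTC
Adra1a of 427 codons: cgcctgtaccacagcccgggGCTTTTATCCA
These ends encode part of the receptor's tail inside the cell. The own bases number 37 and 49 for the Adrb3 forms, and 128 and 11 for the Adra1a forms. The longest exact run shared by any 2 of the 8 genes' transcripts was 30 bases, between Adrb1 and Adrb3, and the median over the 28 pairs was 14 bases.

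The alpha-1 genes were the most abundant of the set and the alpha-2 genes the least. Summed TPM of the alpha-1 genes was 14.9 in replicate 1 and 17.0 in replicate 2, or 76.8% of the summed TPM of the 8 genes in replicate 1 and 72.8% in replicate 2. The 2 beta genes summed to 3.50 TPM in replicate 1 and 5.26 TPM in replicate 2, or 18.1% of the sum in replicate 1 and 22.6% in replicate 2. The alpha-2 genes summed to 0.99 TPM in replicate 1 and 1.09 TPM in replicate 2, or 5.12% in replicate 1 and 4.68% in replicate 2. On the log2 scale the alpha-1 sum exceeded the alpha-2 sum by 3.93 ± 0.04 and the beta sum by 1.89 ± 0.28, and the beta sum exceeded the alpha-2 sum by 2.05 ± 0.32 (mean ± SD, n = 2 libraries). The order of the 3 sums was the same in both libraries, and their values did not overlap. All 8 genes together reached 21.3 ± 2.81 TPM, or 75.1 TPM when TPM was rescaled over protein-coding nuclear genes alone.

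**Figure D1:**
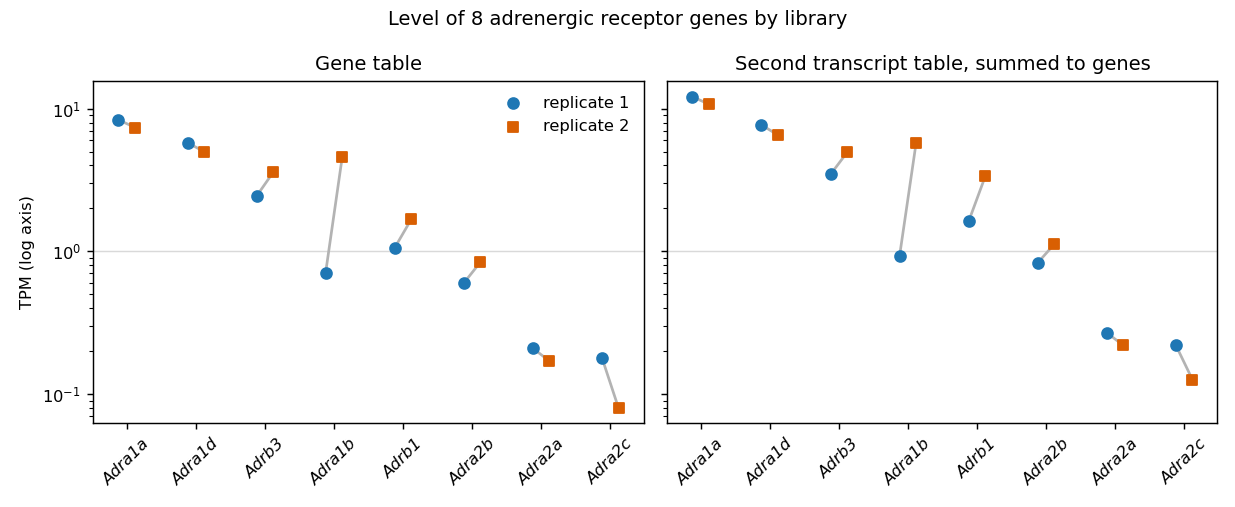
TPM on a log axis of the 8 receptor genes in replicate 1 (circles) and replicate 2 (squares), from the gene table (left) and from the second transcript table summed to genes (right); a line joins the libraries of a gene and the grey line marks 1 TPM. Adra1a and Adra1d lie highest in both libraries, while Adra1b is at 0.71 TPM in replicate 1 against 4.58 TPM in replicate 2.

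Adra1a (ENSMUSG00000045875.13, chr14:66635251-66771168, plus strand) encodes the alpha-1A receptor, which contracts smooth muscle of vessels and the urinary tract. It had 8.36 TPM in replicate 1 against 7.38 TPM in replicate 2, a mean of 7.87 ± 0.693 (SD, n = 2), from 1097 counts in replicate 1 and 940 in replicate 2. This placed it above 70.0% in replicate 1 and 71.4% in replicate 2 of the 21978 protein-coding genes, whose median was 2.06 TPM in replicate 1 and 1.90 TPM in replicate 2. Adra1d (ENSMUSG00000027335.9, chr2:131545850-131562283, minus strand) encodes the alpha-1D receptor of large arteries. Its level was 5.78 TPM in replicate 1 and 5.0 TPM in replicate 2, from 360 counts in replicate 1 and 297 in replicate 2. Within a library Adra1a exceeded Adra1d 1.45-fold in replicate 1 against 1.48-fold in replicate 2, the steadiest of the ratios between neighbours in the order (log2 0.55 ± 0.02, n = 2).

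Adra1b (ENSMUSG00000050541.14, chr11:43774606-43901210, minus strand) encodes the alpha-1B receptor, through which catecholamines release glucose from the liver in rodents. It had 56 counts in replicate 1 (95% exact Poisson interval 42.3 to 72.7) and 319 counts in replicate 2 (285 to 356), or 0.71 TPM in replicate 1 and 4.58 TPM in replicate 2. Its rank among the 8 genes was 5 in replicate 1 and 3 in replicate 2, so its place in the order depended on the library. The ratio of Adra1a to Adra1b was 11.8 in replicate 1 and 1.61 in replicate 2, and that of Adra1d to Adra1b was 8.14 in replicate 1 and 1.09 in replicate 2. The values of Adra1b overlapped with those of both its neighbours by mean TPM, Adrb3 and Adrb1.

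Adrb3 (ENSMUSG00000031489.15, chr8:27225776-27250616, minus strand) encodes the beta-3 receptor, best known from brown and white adipocytes. It had 2.44 TPM in replicate 1 against 3.58 TPM in replicate 2, a mean of 3.01 ± 0.806 (SD, n = 2), from 184 counts in replicate 1 and 225 in replicate 2. Adrb1 (ENSMUSG00000035283.5, chr19:56722199-56733113, plus strand) encodes the beta-1 receptor of heart muscle and of kidney cells that secrete renin. It had 1.06 TPM in replicate 1 against 1.68 TPM in replicate 2, from 105 counts in replicate 1 and 139 in replicate 2. The beta-3 gene was above the beta-1 gene in both libraries, 2.30-fold in replicate 1 against 2.13-fold in replicate 2 (log2 1.15 ± 0.08). An antisense gene, Gm45470, overlaps Adrb3 on the plus strand and had 70 counts in replicate 1 and 68 in replicate 2. Whether counting used strand is not given in the sources used here, so reads of this pair may not have been told apart.

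The alpha-2 genes were all below 1 TPM in the gene table, while the second transcript table gave Adra2b 1.12 TPM in replicate 2. Adra2b (ENSMUSG00000058620.5, chr2:127363208-127367221, plus strand), whose receptor constricts small vessels, had 0.60 TPM in replicate 1 against 0.84 TPM in replicate 2, from 80 counts in replicate 1 and 108 in replicate 2. Adra2a (ENSMUSG00000033717.6, chr19:54044151-54048982, plus strand) encodes the main receptor by which noradrenergic nerve endings limit their own release. It had 0.21 TPM in replicate 1 against 0.17 TPM in replicate 2, from 28 counts in replicate 1 and 22 in replicate 2. Adra2c (ENSMUSG00000045318.6, chr5:35278319-35281763, plus strand) encodes the receptor known for feedback inhibition of catecholamine release from mouse chromaffin cells. It was the lowest of the 8 genes, at 0.18 TPM in replicate 1 against 0.08 TPM in replicate 2. Its counts were 21 in replicate 1 (exact Poisson interval 13.0 to 32.1) and 9 in replicate 2 (4.12 to 17.1), so its level was loosely set. Adra2b was above Adra2a in both libraries, 2.86-fold in replicate 1 and 4.94-fold in replicate 2, while the values of Adra2a and Adra2c overlapped.

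By mean TPM the order was Adra1a, Adra1d, Adrb3, Adra1b, Adrb1, Adra2b, Adra2a and Adra2c. Neighbours did not overlap between Adra1a and Adra1d, Adra1d and Adrb3, Adrb1 and Adra2b, and Adra2b and Adra2a. They overlapped for Adrb3 with Adra1b, Adra1b with Adrb1, and Adra2a with Adra2c. In the gene table, 4 of the 8 genes reached at least 1 TPM in replicate 1 and 5 in replicate 2. Among protein-coding genes, 56.4% did so in replicate 1 and 55.8% in replicate 2. The 2 protein-coding genes nearest to Adra1a in log2(TPM + 0.1) over both libraries were Gm49325, at 8.33 TPM in replicate 1 against 7.39 TPM in replicate 2, and Eif4e3, at 8.42 TPM in replicate 1 against 7.32 TPM in replicate 2. Those nearest to Adra1d were Tti1, at 5.75 TPM in replicate 1 against 5.02 TPM in replicate 2, and Fgd4, at 5.84 TPM in replicate 1 against 5.01 TPM in replicate 2. With only 2 libraries such likeness is common: 64 protein-coding genes lay within 0.1 of Adra1a on this scale, 73 within that of Adra1d and 3 within that of Adrb3.

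Once counts were scaled with edgeR's TMM method, 5 of the 8 genes were called lower in replicate 1 than in replicate 2. Of these, 4 were also called lower under total-count and ERCC scaling, and none of the 8 was called higher. Adra1b stood furthest apart, at 8.00-fold lower in replicate 1 (95% Clopper-Pearson interval of the fold 6.01 to 10.8). Adra2b, Adrb1 and Adrb3 were 1.90-fold (1.41 to 2.56), 1.86-fold (1.43 to 2.42) and 1.72-fold (1.41 to 2.10) lower in replicate 1. Of 7 genes tested, 5 were called lower in replicate 1, that is higher in replicate 2, by the exact conditional binomial test with Benjamini-Hochberg adjustment over 16137 genes. Among all genes tested, 28.5% were called higher in replicate 2 and 24.6% higher in replicate 1. In these bulk samples, fewer cells of a type and less RNA per cell cannot be told apart.

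Log2 differences of replicate 1 over replicate 2 were -2.99 for Adra1b, -0.92 for Adra2b, -0.89 for Adrb1 and -0.78 for Adrb3. By that exact test their Benjamini-Hochberg adjusted p-values were 2.24e-66 for Adra1b, 5.68e-05 for Adra2b, 6.93e-06 for Adrb1 and 2.66e-07 for Adrb3. The median difference over all genes tested was near 0, with quartiles at -0.30 and 0.24, so these 4 genes lie below the lower quartile. A difference called at 2-fold or more was found for 8.37% of genes toward replicate 2 and 2.48% toward replicate 1, and Adra1b was the only one of the 8 genes in that class. The call of these 4 genes held under total-count scaling, ERCC scaling, DESeq2 size factors, the second transcript table and both other count minimums. Under total-count scaling Adra1b remained at -2.65 and Adrb3 at -0.44, with adjusted p-values of 5.82e-51 and 0.00388 from the exact binomial test.

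The directions of the 2 alpha-1 genes of highest level turned on the scaling. Adra1a was 1.20-fold lower in replicate 1 under TMM (log2 -0.27, adjusted p = 0.000112 by the exact binomial test), although its TPM was higher in replicate 1. Under total counts its log2 difference was 0.07 (adjusted p = 0.321, exact binomial test) and under ERCC scaling 0.01 (adjusted p = 0.946, exact binomial test). TMM gives every gene a log2 difference 0.34 lower than total counts do and 0.28 lower than ERCC counts do, which is at least as large as the difference of Adra1a itself. Adra1d had a log2 difference of -0.21 (adjusted p = 0.111, exact binomial test) that also changed sign, to 0.13 under total counts. Adra2a, with 28 counts in replicate 1 and 22 in replicate 2, had a log2 difference of -0.15 (adjusted p = 0.888, exact binomial test), 0.19 under total counts, and its fold of replicate 1 over replicate 2 had an interval from 0.50 to 1.66. Adra2c had a mean count under 20 and was not tested. Its ratio of replicate 1 over replicate 2 was 1.66, with an interval from 0.729 to 4.12.

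**Figure D2:**
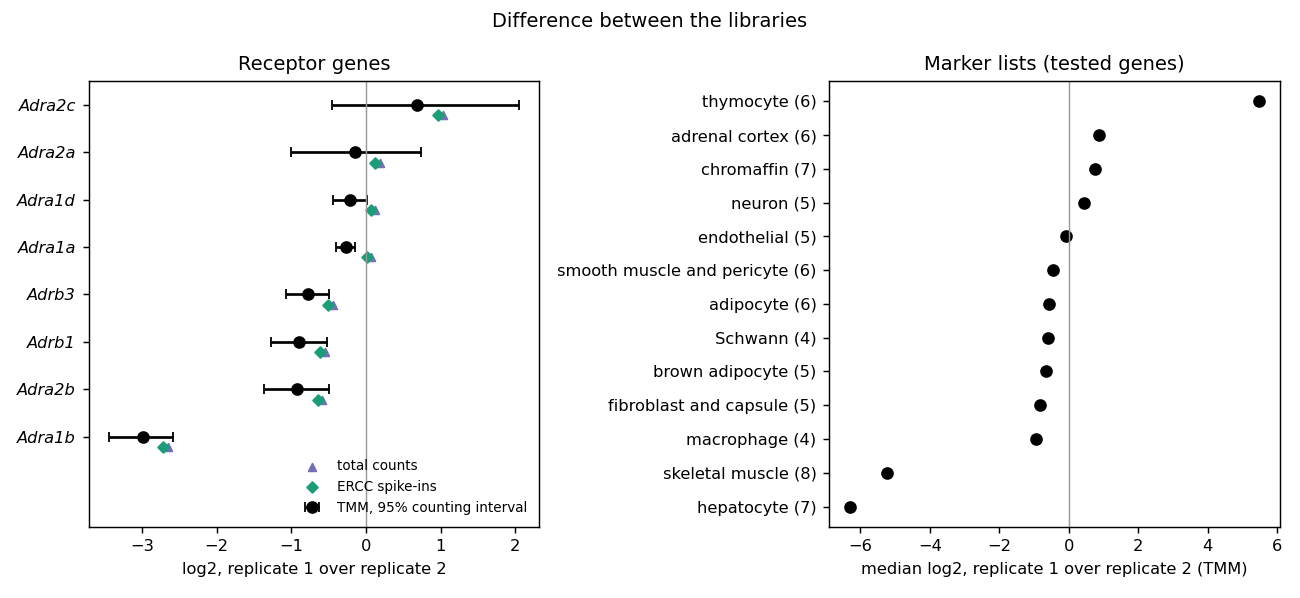
Log2 of replicate 1 over replicate 2 for the 8 receptor genes (left), scaled with TMM (circles, bars are 95% counting intervals), total counts (triangles) and ERCC spike-ins (diamonds), and the median of the same difference over the tested genes of each marker list (right, number of genes in brackets). Adra1b lies at -2.99 and Adra1a, Adra1d and Adra2a change sign with the scaling, while hepatocyte markers lie at -6.31 and adrenal cortex markers at 0.87.

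Markers of other cell types moved between the libraries beside these genes. All 7 hepatocyte markers were called higher in replicate 2 (median log2 -6.31), and Alb, the gene of serum albumin, had 189 TPM in replicate 1 against 10582 TPM in replicate 2. All 8 skeletal muscle markers were also higher in replicate 2 (median log2 -5.23), with Acta1, skeletal muscle actin, at 6.86 TPM in replicate 1 against 174 TPM in replicate 2. The part of either in the difference of Adra1b was not tested. In a ratio chosen after the values were seen, Adra1b stood to Alb at a log2 of -8.05 in replicate 1 and -11.17 in replicate 2.

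Fat markers differed in the same direction as the beta genes under TMM. All 5 brown adipocyte markers (median log2 -0.65) and all 6 adipocyte markers (median log2 -0.56) were called higher in replicate 2, and Adrb3 stood at -0.78 and Adrb1 at -0.89. Ucp1, the uncoupling protein of brown fat, had 659 TPM in replicate 1 against 774 TPM in replicate 2, and the adipokine gene Adipoq 63.2 TPM in replicate 1 against 76.2 TPM in replicate 2. In unscaled TPM the adipocyte list was mixed, since Plin1, Lep and Lipe were higher in replicate 1. Lipe, the hormone-sensitive lipase of fat breakdown, had 103.7 TPM in replicate 1 against 87.6 TPM in replicate 2. Under total counts 4 of the 6 adipocyte markers were called higher in replicate 2 and 1 higher in replicate 1. The log2 ratio of Adrb3 to Adipoq, also chosen after the values were seen, was -4.69 in replicate 1 and -4.41 in replicate 2. Under TMM, fibroblast and capsule markers (median log2 -0.83, 4 of 5 called) and macrophage markers (median log2 -0.95, 3 of 4 called) were also higher in replicate 2. The direction shared with the beta genes was thus not particular to fat markers. The part of fat tissue in the level of Adrb3 was not tested. Smooth muscle and pericyte markers, of cells that carry alpha-1 receptors, were higher in replicate 2 in 6 of 6 genes (median log2 -0.46), and Acta2, smooth muscle actin, had 9.66 TPM in replicate 1 against 10.9 TPM in replicate 2. Under total-count scaling 3 of those 6 were called higher in replicate 2.

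Markers of the gland itself differed in the opposite direction. All 6 adrenal cortex markers were called higher in replicate 1 (median log2 0.87), with Star, which brings cholesterol into mitochondria, at 2049 TPM in replicate 1 against 838 TPM in replicate 2. All 7 chromaffin markers were called higher in replicate 1 (median log2 0.75). None of the 7 receptor genes tested was called in that direction under TMM, beside 24.6% of all genes tested, and none of those tested was under the 6 other scalings, tables and count minimums. Under total counts 9409 of the 16137 genes were called in that direction. The log2 ratio of Adra1a to Star, chosen after the values were seen, was -7.94 in replicate 1 and -6.83 in replicate 2. The part of the cortex and medulla in the receptor levels was not tested.

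The transcripts of Adra1a divided mainly between its long and its short tail. The form of 466 codons, summed over 3 transcripts, took 46.3% of the gene's TPM in replicate 1 and 43.6% in replicate 2 in the first transcript table, and 42.4% in replicate 1 and 42.0% in replicate 2 in the second. The form of 427 codons, Adra1a-203, took 38.7% in replicate 1 and 46.95% in replicate 2 in the first table, and 43.4% in replicate 1 and 47.4% in replicate 2 in the second. Each form thus held between 38.7% and 47.4% in every library and table. The split within the longer form was less settled: Adra1a-201 took 17.3% in replicate 1 and 21.4% in replicate 2 in the first table, against 0.389% in replicate 1 and 10.7% in replicate 2 in the second. A retained-intron transcript without coding sequence, Adra1a-204, took between 8.72% and 13.0% over the libraries and tables.

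Most of the TPM of Adra1b went to the distal start, the one with the low GC content, but most of its counts did not in replicate 1 of the first table. Transcripts from the GENCODE start at 43901210 took 51.8% in replicate 1 and 65.0% in replicate 2 in the first table, and 83.3% in replicate 1 and 100% in replicate 2 in the second. Those from 43836332, a start that lies outside the proximal RefSeq window printed above, took 48.2% in replicate 1 and 35.0% in replicate 2 in the first table, and 16.7% in replicate 1 and 0% in replicate 2 in the second. The 2 transcripts of the proximal start, Adra1b-202 and Adra1b-204, have identical sequences, and each table gave both the same count. In the first table each of these, 3047 bases long, had 17.3 counts in replicate 1 and 77.9 in replicate 2. The distal Adra1b-203, 1764 bases long, had 20.7 in replicate 1 and 163 in replicate 2, and the distal Adra1b-201 had 0.61 and 0. By counts the proximal start thus held more than the distal one in replicate 1 of that table. The distal Adra1b-203 and the proximal Adra1b-202 have no annotated 3′ end. With 56 counts for the whole gene in replicate 1, the share of each start there rests on few reads, and a change of start between the libraries was not tested.

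Adrb3 was made up mainly of the form of 400 codons. That form took 96.6% of the gene's TPM in replicate 1 and 81.95% in replicate 2 in the first table, and 96.0% in replicate 1 and 89.4% in replicate 2 in the second. The form of 404 codons, with the other tail printed above, had 0 counts in replicate 1 and 12.3 in replicate 2 in the first table, and 4.54 in replicate 1 and 7.68 in replicate 2 in the second. Both tables thus listed it in replicate 2, and the second also in replicate 1. The non-coding Adrb3-204 took 9.65% of TPM in replicate 2 from 4 counts on its 450 bases. Adrb3-205 was at 0 in both tables and libraries.

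Short transcripts set part of the level of Adrb1. The non-coding Adrb1-202, 494 bases long, had no counts in replicate 1 and 3 in replicate 2 in the first table, which gave it 0.23 TPM. In replicate 2 of the second table, 6.93 counts gave it 1.39 TPM, or 41.5% of the gene. The coding transcript alone, Adrb1-201, had 1.06 TPM in replicate 1 against 1.45 TPM in replicate 2 in the first table, and 1.62 TPM in replicate 1 and 1.96 TPM in replicate 2 in the second. The gene's summed level in replicate 2 thus depended on a few counts, while its count difference did not use TPM.

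The alpha-2 genes have few transcripts. Adra2b-201 lies wholly inside Adra2b-202, and the share of Adra2b-202 was 54.5% in replicate 1 and 100% in replicate 2 in the first table, and 0% in replicate 1 and 99.9% in replicate 2 in the second. The tables thus differed in replicate 1 and gave nearly the same share in replicate 2. Adra2a-202 took 70.3% in replicate 1 and 70.2% in replicate 2 in the first table, and 83.1% in replicate 1 and 60.4% in replicate 2 in the second, and both Adra2a transcripts hold the same coding sequence. Adra1d and Adra2c each have 1 annotated transcript.

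**Figure D3:**
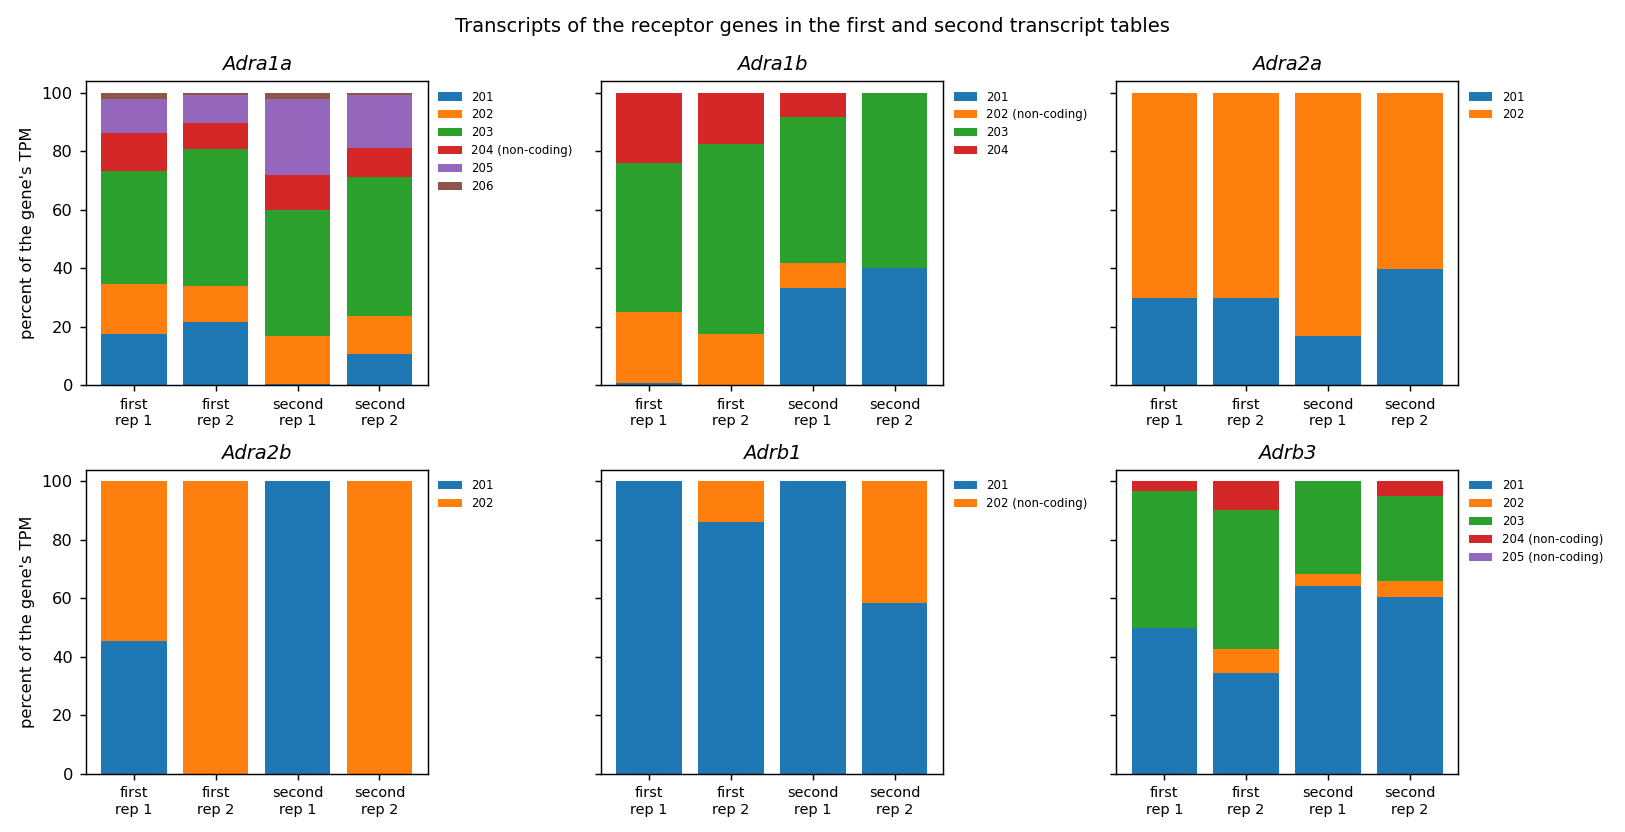
Percent of each gene's TPM given to its annotated transcripts, for the 6 receptor genes with more than 1, in replicates 1 and 2 of the first and the second transcript table. The Adra1a transcript 203 takes 38.7% to 47.4% in the 4 columns, while Adra2b, Adra1b and Adrb1 differ between the tables.

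Levels in the first transcript table were lower than in the second for all 8 genes in both libraries. The log2 ratio of first over second table, with 0.1 TPM added, ran from -0.57 to -0.19 in replicate 1, beside a median of -0.48 over 13796 genes. In replicate 2 it ran from -0.53 to -0.24 for 7 of the genes, beside a median of -0.52, and was -0.96 for Adrb1. The 10th percentile of all genes there was -0.95. The tables gave the 8 genes the same order in each library.

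All 4 genes that make catecholamines had higher TPM than any of the 8 receptor genes in both libraries. Th, which makes the dopamine precursor and sets the rate of the pathway, had 174 TPM in replicate 1 against 65.5 TPM in replicate 2, and Pnmt, which turns noradrenaline into adrenaline, 202 TPM in replicate 1 and 93.6 TPM in replicate 2. Of the 4 synthesis genes, 3 were called higher in replicate 1 and none higher in replicate 2, and the median log2 difference was 0.74, beside 0.00243 over all genes tested. Ddc, which decarboxylates that precursor, was the lowest of the 4, at 16.2 TPM in replicate 1 against 13.1 TPM in replicate 2, with a log2 difference of 0.04.

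Genes of storage, uptake and breakdown divided in direction. Of 7, 2 were called higher in replicate 1 and 4 higher in replicate 2, with a median log2 difference of -0.42. Maob, a mitochondrial enzyme of monoamine breakdown, differed most toward replicate 2, at 4.80 TPM in replicate 1 against 18.7 TPM in replicate 2. Slc18a1, the vesicle transporter of chromaffin cells, differed most toward replicate 1, at 9.33 TPM in replicate 1 against 3.98 TPM in replicate 2. The lowest was Slc22a3, an uptake transporter outside nerve endings, at 1.64 TPM in replicate 1 against 2.52 TPM in replicate 2.

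The G protein partners of all 3 receptor groups were present. Gnas, the Gs subunit used by beta receptors, had 1308 TPM in replicate 1 against 1169 TPM in replicate 2. Among Gq family genes, the partners of alpha-1 receptors, Gna11 had the highest mean, with 18.9 TPM in replicate 1 against 17.4 TPM in replicate 2, and its log2 difference of -0.29 was the furthest toward replicate 2 among the subunits tested. Gnaq had 20.3 TPM in replicate 1 against 12.9 TPM in replicate 2, and Gna14 11.3 TPM in replicate 1 and 5.56 TPM in replicate 2. Gnai2, a Gi subunit used by alpha-2 receptors, had 73.1 TPM in replicate 1 against 61.0 TPM in replicate 2. Gna15 was lowest, at 0.17 TPM in replicate 1 against 0.10 TPM in replicate 2. Of 9 subunit genes tested, 3 were called higher in replicate 1 and 3 higher in replicate 2 under TMM, with a median log2 difference of 0.09. Under total counts and under ERCC scaling the split was 7 higher in replicate 1 and 0 higher in replicate 2.

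Effectors and the genes that switch receptors off showed the same dependence. Of 8 adenylyl cyclases tested, 2 were called higher in replicate 1 and 4 higher in replicate 2 under TMM, and 4 higher in replicate 1 and 0 higher in replicate 2 under total counts. Adcy6, at 14.8 TPM in replicate 1 against 16.7 TPM in replicate 2, had the highest mean, and Adcy8, at 0.01 TPM in replicate 1 against 0.02 TPM in replicate 2, the lowest. All 4 phospholipase C beta genes were tested, with 3 called higher in replicate 1 and 1 higher in replicate 2 under TMM, and 0 higher in replicate 2 under total counts. Plcb1 led that group, at 20.6 TPM in replicate 1 against 8.72 TPM in replicate 2. Of 7 receptor kinases and arrestins, 1 was called higher in replicate 1 and 2 higher in replicate 2, against 4 and 0 in those directions under total counts. Grk2, the kinase first known for acting on beta receptors, had 18.4 TPM in replicate 1 against 10.5 TPM in replicate 2. Its counts gave a log2 difference of only 0.03 under TMM, and it was not called.

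Dopamine receptors, whose ligand is made on the same path, number 5 and were all under 1 TPM in both libraries. Drd2 was highest, at 0.45 TPM in replicate 1 against 0.26 TPM in replicate 2, and the only one tested (log2 0.35, adjusted p = 0.531 by the exact binomial test). Drd3 and Drd5 had 0 counts in both libraries, which allows up to 7.98e-06% of the counts in replicate 1 and 8.86e-06% in replicate 2.

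**Figure D4:**
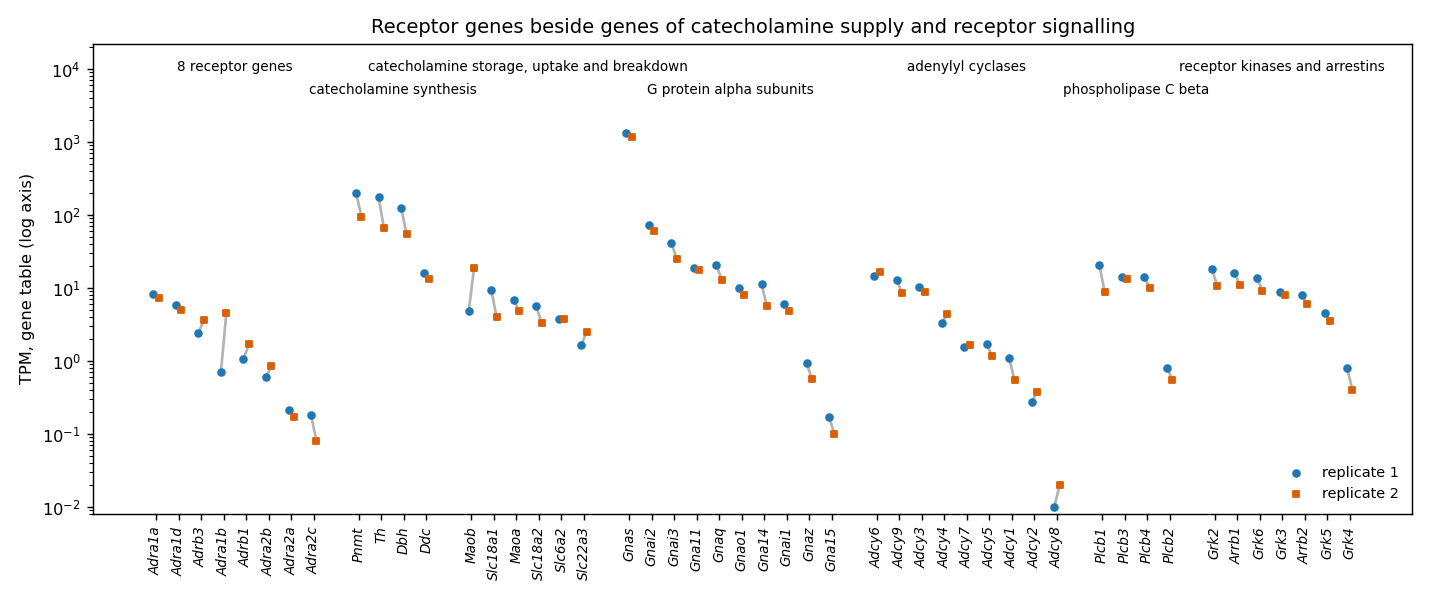
TPM on a log axis of the 8 receptor genes and of genes of catecholamine supply and receptor signalling, by list, in replicate 1 (circles) and replicate 2 (squares), with 1 gene of the storage, uptake and breakdown list and the dopamine receptors left out. The receptor genes lie between 0.08 and 8.36 TPM, below Th, Pnmt, Dbh and Gnas in both libraries.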

How the data were processed

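Total RNA-seq of 2 adrenal gland libraries was analysed. Per the labels, RNA went through ribosomal RNA reduction and a directional kit, with ERCC spike-ins. Per the file headers, expected counts and TPM fill the authors' gene table and first transcript table, and that transcript table also gives, as deposited, each transcript's percent of its gene's TPM. The second transcript table holds the authors' estimated counts and TPM. Per the text deposited with each sample, the assembly is mm10 and the annotation GENCODE M21. The tools behind the tables and the strand setting of the counting were not given in these sources. All 8 genes had whole expected counts in both libraries.

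Members were matched by gene symbol. The members and gene lists were chosen with earlier results of these data known. The named genes were the 8 members, and in each list the genes of highest and lowest mean TPM, those that differed most in each direction and its defining genes, with the 2 protein-coding genes nearest to each of the 3 most abundant members. Some genes that this rule names are not reported here. Expected counts were rounded, genes sharing a symbol were summed, and counts were scaled with edgeR 4.0.16 TMM in R 4.3.3 (prior count 0.5). Nuclear genes whose mean count reached 20 entered an exact conditional binomial test in SciPy 1.17.1 (two-sided by doubling the smaller tail, called at a Benjamini-Hochberg adjusted p under 0.05), which compares 2 libraries and covers counting error only. With 1 group no edgeR model test between groups was possible. DESeq2 1.42.0 gave size factors as an alternative. Tested on simulated counts of 16156 genes with counting noise alone, the calls recovered 82% of 1.5-fold and 95% of 3-fold changes, with 4.84% of calls false. Totals were 37586172 counts in replicate 1 and 33844950 in replicate 2. Other alternatives were total-count and ERCC scaling, count minimums of 1 and 50, a prior count of 2, pseudocounts of 0.1 and 1, TPM over protein-coding genes, the second table and leaving out each replicate. Promoters are from RefSeq on GRCm38.p6, and transcripts from GENCODE M21.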

Additional observations from a re-analysis of the deposited data

How the results depend on the processing

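The call of Adra1b, Adra2b, Adrb1 and Adrb3 held under every scaling, table and count minimum tried, and members called numbered 5 toward replicate 2 or 4 under total-count and ERCC scaling, which took out Adra1a. The log2 difference of Adra1a turned to 0.071 under total counts, 0.0075 under ERCC scaling, 0.18 as log2(TPM + 0.1) and 0.16 as log2(TPM + 1). The ratio of Adrb3 to Adra1b turned to -0.36 without replicate 1 and was 1.78 without replicate 2. That of Adra1b to Adrb1 turned to -0.58 without replicate 2 and was 1.45 without replicate 1, and it turned to -0.0063 in the second transcript table. All genes called higher in replicate 1 numbered 9409 under total counts and 8522 under ERCC scaling, against 3977 under TMM, and those higher in replicate 2 numbered 2262 and 2525, against 4598. Pathway genes called higher in replicate 1 numbered 25 under both, against 14, and those higher in replicate 2 numbered 3 and 4, against 14. These shifts follow from the constants 0.34 and 0.28 that separate the scalings. The summed level of the 8 genes, 21.3 TPM, was 30.0 TPM in the second table and 75.1 TPM over protein-coding genes alone, and ran from 19.3 to 23.3 TPM when a replicate was left out. The log2 ratio of alpha-1 to alpha-2 sums, 3.93, was 3.97 in the second table, 3.52 from counts, and 3.81 and 3.05 with 0.1 and 1 TPM added, and ran from 3.91 to 3.96 leaving out a replicate. That of alpha-1 to beta sums, 1.89, was 2.24 from counts and ran from 1.69 to 2.09 leaving out a replicate. The shares of coding form 1 of Adra1a, of the distal start of Adra1b and of the coding form of Adrb1 averaged 42.2%, 91.6% and 79.3% in the second table. No paired analysis was possible because there is 1 group. Depth limits Adra2c and Adra2a most, at 9 to 28 counts a library.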
